A study of Mus musculus with 4 samples.

Results

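The genes described here encode the subunits of the SWI/SNF chromatin remodelling complexes and the motor proteins of the other remodeller families. They were chosen by symbol from a fixed list of 41 genes, 28 of SWI/SNF and 13 of the ISWI, CHD and INO80 families with Hells and Atrx. Of the 41, 40 had a row among the 23337 gene rows of the count table, and 39 passed the filter on low counts, of 14316 genes that did. Srcap had no row under that symbol or an older one, and Actl6b had a row with 0 reads in every library.

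The tissue was the cardiac cushion, the cell-rich thickening of outflow tract and atrioventricular canal that later becomes valves, taken for RNA sequencing from C57BL/6 mouse embryos at embryonic day 14.5. There were 2 libraries from wildtype littermates and 2 from embryos of genotype Nfatc1Cre;Brg1F/F, in which both floxed copies of Brg1 (Smarca4) are open to deletion by a Cre made under Nfatc1, a gene of the endocardium. Dissection followed GFP from a Cre reporter in both groups. The labels give neither the Cre, floxed and reporter alleles of the wildtype embryos nor the number of embryos in a library, so p-values measure the spread between libraries, which may be technical in part.

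SWI/SNF complexes use the energy of ATP to slide or evict nucleosomes. Each holds 1 ATPase, BRG1 (Smarca4) or BRM (Smarca2), on a shared core, and 3 kinds of assembly are told apart by further subunits: canonical BAF by an ARID1 protein, PBAF by ARID2 and polybromo, and non-canonical BAF by BRD9. Many subunits come from paralogous genes that replace one another between tissues, and loss of BRG1 in the mouse disturbs the growth of heart muscle, endocardium and valves. ISWI, CHD and INO80 proteins are separate families of remodelling ATPases with partners of their own.

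The libraries held 14104458 to 22426537 reads assigned to genes. Levels are in CPM, the usual depth-scaled read count, here after TMM scaling, and levels of different genes are compared as CPM per kb of merged exon. All 8 markers of endocardium and all 8 of cushion mesenchyme were measured, with summed levels of 1226 to 1321 CPM and 6333 to 6980 CPM. Cardiomyocyte markers summed to at least 52571 CPM, so muscle RNA was abundant in every library. Xist measured 13.3 CPM in the library labelled mutant 2 and 2047 to 2659 CPM in the others, and the Y-linked Ddx3y 239 CPM and at most 1.77 CPM. By these transcripts the library labelled mutant 2 came mostly from male tissue and the others from female tissue. Leukocyte markers summed to 130 and 135 CPM in the wildtype libraries and to 187 and 217 CPM in the libraries labelled mutant. By edgeR 1 of 8, Ptprc, was called higher, and 3 with the replicate number as a block, Csf1r and Itgam besides. Erythroid markers summed to 585 and 594 CPM, against 850 and 653 CPM, with 1 of 8, Hemgn, called higher and 2 with the block, Slc4a1 besides. Hepatocyte markers summed to 4.80 to 17.2 CPM, and Alb and Afp were called higher with the block alone. Of the endocardial markers Npr3 was called lower with the block alone. The part of sex and of these other cells in the values below was not tested.

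None of the subunit or remodeller genes was called in the genotype comparison. With edgeR and Benjamini-Hochberg adjustment, 0 of 39 tested members were past 0.05, as against 0.0629% of all genes. DESeq2 also called 0, where it called 0.442% of all genes, and so did edgeR with the replicate number as a block, which called 0.887%. At an unadjusted p under 0.05 there was 1 member, Chd3, or 2.56% of those tested, against 5.78% of all genes and 3.88% that were also higher in the libraries labelled mutant. The block left 0 members there, against 6.29% of all genes, and dropping the filter gave 2, Chd3 and Smarcc1, against 6.41%. The median log2 fold change, labelled mutant over wildtype, was -0.01 for the 27 SWI/SNF members, 0.04 for the 12 other remodellers and -0.0027 for all genes tested. Without the library labelled mutant 1 these medians were -0.04 for SWI/SNF and -0.04 for the others, and without the one labelled mutant 2 they were 0.03 and 0.12, so their signs rest on single libraries. The members' fold changes ran from -0.27 to 0.66 on the log2 scale, with 19 above 0 and 20 below.

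How precisely these values were measured can be read from their 95% intervals. These come from edgeR's error of each gene in the fit without the replicate block. They are not corrected for the number of genes. For 38 of 39 members the interval lay within a 2-fold change in either direction, and for 33 within 1.5-fold. The exception at 2-fold was Dpf1, which had few reads. Smarcc1, Dpf3, Bcl7b, Bcl7c and Ss18l1 joined it at 1.5-fold. All 12 tested remodellers outside SWI/SNF lay within 1.5-fold.

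**Figure D1:**
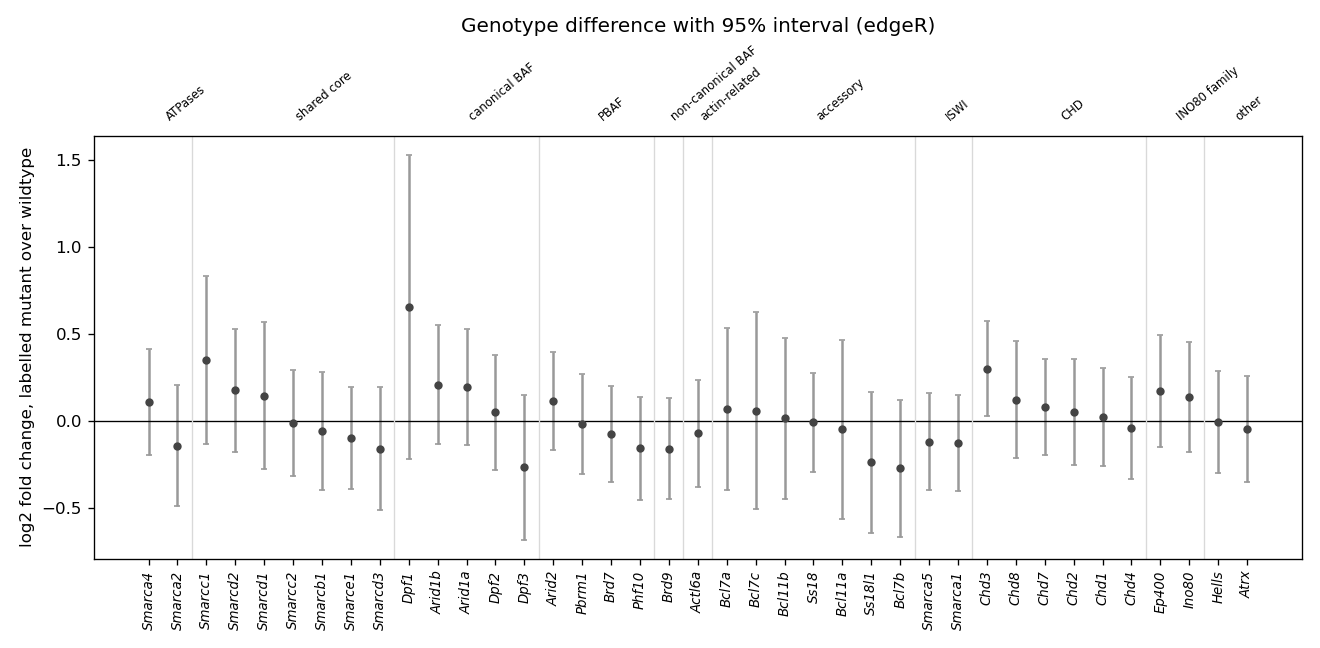
Log2 fold change of each of the 39 tested members, labelled mutant over wildtype (y axis), by family and in falling order within it (x axis); points are edgeR estimates and bars their 95% intervals. The fit is without the replicate block. Only the bar of Chd3 leaves out 0, from 0.03 to 0.57, and only that of Dpf1 reaches past 1.

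Smarca4, the ATPase targeted by the deletion, was not lower in the libraries labelled mutant. It measured 251 and 231 CPM in the wildtype libraries 1 and 2, and 282 and 239 CPM in those labelled mutant 1 and 2. The groups overlapped, and the library labelled mutant 1 was the highest of the 4. The log2 fold change was 0.11 ± 0.14 (SE, edgeR adjusted p = 0.979). In this fit, without the replicate block, the 95% interval of 0.875-fold to 1.34-fold reached down to a fall of 12.5%. Without the library labelled mutant 1 the log2 fold change was -0.02, and without the one labelled mutant 2 it was 0.23. The counts cover the whole gene (chromosome 9, 21616169 to 21704230), so transcripts that lack the floxed part are counted too, and cells outside the Cre lineage are in the tissue. They therefore do not check the deletion. In bulk tissue, fewer cells of a type and less RNA per cell cannot be told apart. Since these counts cannot check the labels, libraries are named throughout by their label.

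Smarca2, the BRM ATPase that can take the place of BRG1 in these complexes, had overlapping groups. Smarca2 (chromosome 19, 26605050 to 26778322) had 123 and 144 CPM in the wildtype libraries and 136 and 107 CPM in those labelled mutant 1 and 2. The lowest value was in the library labelled mutant 2. The log2 fold change was -0.14 ± 0.15 (edgeR adjusted p = 0.979), with an interval from 0.714-fold to 1.15-fold, so a rise above 15.4% lay outside it. It was -0.33 without the library labelled mutant 1 and 0.03 without the one labelled mutant 2.

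Per length, Smarca4 was the higher of the ATPase genes in every library. Smarca4 stood at 38.8, 35.7, 43.6 and 36.9 CPM per kb in wildtype 1, wildtype 2, labelled mutant 1 and labelled mutant 2, and Smarca2 at 8.63, 10.1, 9.51 and 7.47. Smarca4 thus made up 81.8% and 77.9% of the summed level of both genes in the wildtype libraries, and 82.1% and 83.2% in those labelled mutant. The ratio of Smarca2 to Smarca4 was 0.253 on average in wildtype and 0.210 in the libraries labelled mutant, which all lay below the wildtype ones. The difference in log2 ratio was -0.26, with an exact two-sided permutation p of 0.333, the smallest that 2 libraries against 2 can give. It was -0.43 without wildtype 1 and -0.08 without wildtype 2. The merged exons of Smarca2 span 14269 bases and its longest transcript 5921. With the longest transcript as length, the share of Smarca4 was 59.8% to 67.5%, so the order held but its size depends on the length used.

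Among the genes grouped here as core subunits, of which Smarcb1 and Smarce1 are not part of non-canonical BAF, Smarcc1 and Smarcc2, scaffold proteins that pair within the complex, were the most abundant per length together with Smarce1, an HMG-box subunit. Smarcc2 had 215 CPM in both wildtype libraries and 233 and 194 CPM in those labelled mutant 1 and 2. Smarcc1 (chromosome 9, 110117708 to 110240178) had 185, 228, 326 and 201 CPM in wildtype 1, wildtype 2, labelled mutant 1 and labelled mutant 2. The value of 326 CPM stood 0.52 on the log2 scale above the next library, a gap that 1.99% of tested genes equalled or passed in that library, while the library labelled mutant 2 lay inside the wildtype range. Smarcc1 had a log2 fold change of 0.35 ± 0.21 (edgeR adjusted p = 0.952). It was -0.04 without the library labelled mutant 1, and 0.66 without the one labelled mutant 2, where Smarcc1 passed (edgeR adjusted p = 0.00421) in a fit that called 3.0% of all genes. The difference in Smarcc1 therefore rests on 1 library.

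The other core subunits kept close to their wildtype levels. Smarcb1, which contacts the nucleosome and is lost in rhabdoid tumours, measured 42.9 and 38.9 CPM in wildtype, against 38.3 and 40.5 CPM in the libraries labelled mutant. Smarce1 measured 207 and 198 CPM, and 175 and 203 CPM. Both groups overlapped for each gene.

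The 3 Smarcd paralogues, of which 1 sits in each complex, were present at like levels per length. Smarcd3, the paralogue known for its role in heart development, had 10.2 and 8.54 CPM per kb in wildtype and 8.76 and 8.04 in the libraries labelled mutant. Smarcd1 ran from 7.17 to 10.003 and Smarcd2 from 7.05 to 8.30 over the 4 libraries. The highest of the 3 was Smarcd3 in wildtype 1, Smarcd1 in wildtype 2 and labelled mutant 1, and Smarcd2 in labelled mutant 2, so no order held across libraries. Over Smarcd3, 48.2% of exon bases are shared with genes on the opposite strand, Chpf2 among them. Because the strand setting of the counting is not given in the sources used here, its level is uncertain.

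The canonical BAF subunits showed groups that did not overlap for 5 of 5 genes, 4 higher and 1 lower in the libraries labelled mutant. In the other SWI/SNF families the counts were 0 of 2 ATPase, 1 of 7 core and 2 of 4 PBAF genes. They were 1 of 1 for non-canonical BAF, 1 of 1 for the actin-related and 2 of 7 for the accessory genes. Among all tested genes 33.2% did not overlap, 17.0% higher and 16.3% lower. Over all 39 members the count was 16, or 41.0%, with 8 in each direction. Arid1a, the large DNA-binding subunit often lost in cancers, measured 229 CPM in both wildtype libraries and 295 and 229 CPM in those labelled mutant 1 and 2. Its separation thus rested on the library labelled mutant 1. Without that library the log2 fold change of Arid1a was 0.0013; without the one labelled mutant 2 it was 0.37 at an unadjusted edgeR p of 0.0222. Smarcc1 and Arid1a were the 2 members under 0.05 in that fit, against 13.9% of all genes. Arid1b, the paralogue that takes its place, measured 63.6 and 80.8 CPM in wildtype, against 85.1 and 81.9 CPM in the libraries labelled mutant, with a log2 fold change of 0.21 ± 0.15 (edgeR adjusted p = 0.961). Here it was wildtype 1 that stood apart, below the other libraries. Arid1a made up 75.4% to 79.8% of the summed level per length of the pair.

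The Dpf genes encode PHD-finger subunits of BAF: Dpf2 is expressed widely, Dpf3 is known from heart and skeletal muscle, and Dpf1 from neurons. Dpf2 measured 42.2 and 39.4 CPM in wildtype, against 42.3 and 42.2 CPM in the libraries labelled mutant. Its groups were nearly tied, at 42.18 CPM in wildtype 1 and 42.23 CPM in labelled mutant 2. Dpf3 (chromosome 12, 83213745 to 83487716) measured 30.04 and 28.3 CPM in wildtype, against 27.7 and 20.7 CPM in the libraries labelled mutant, with a log2 fold change of -0.26 ± 0.18 (edgeR adjusted p = 0.961). The library labelled mutant 2 was the low one. Without the library labelled mutant 1, Dpf3 had a log2 fold change of -0.50 and an unadjusted edgeR p of 0.0158. That fit put 2 members, Dpf3 and Bcl11a, and 6.05% of all genes under 0.05, and called 0 members after adjustment, against 1.24% of all genes. Dpf3 had a log2 fold change of -0.07 without the one labelled mutant 2. The 8 cardiomyocyte markers summed to 65674 and 59395 CPM in wildtype and to 52571 and 55787 CPM in the libraries labelled mutant, with a median log2 fold change of -0.23. By edgeR 0 of them were called without the replicate block and 1, Nppa, was called lower with it; their part in the value of Dpf3 was not tested. Per merged exon length the ratio of Dpf3 to Dpf2 was 1.10 in wildtype and 0.881 in the libraries labelled mutant. With the longest transcript as length it was 0.756 in wildtype, so which of them is higher depends on the length used.

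Dpf1 had the largest fold change of the members and the fewest reads of those tested. It had 20 and 16 reads in wildtype and 39 and 22 in the libraries labelled mutant, or 1.07, 1.01, 1.72 and 1.55 CPM, where 3 reads correspond to 0.134 to 0.213 CPM. Both libraries labelled mutant lay above both wildtype ones. The log2 fold change was 0.66 ± 0.39 (edgeR adjusted p = 0.944), with an interval from 0.862-fold to 2.89-fold. Neural crest, glial and neuronal markers summed to 18.8 and 23.9 CPM in wildtype and to 22.5 and 18.9 CPM in the libraries labelled mutant, so that list did not move with Dpf1.

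The actin-related subunits gave the sharpest contrast between paralogues. Actl6a, the form of dividing cells, measured 58.5 and 55.1 CPM in wildtype, against 54.6 and 53.7 CPM in the libraries labelled mutant. Actl6b, which replaces it in neurons, had 0 reads in each library, which allows at most 0.134 to 0.213 CPM. The RefSeq sequences around their start sites (GRCm38.p6, 250 bases before to 50 after the start, plus strand for both genes) are shown because reads came from one gene and not from the other, with each CG in capitals. They lie at chr3:32708296-32708595 for Actl6a and chr5:137553296-137553595 for Actl6b.
Actl6a: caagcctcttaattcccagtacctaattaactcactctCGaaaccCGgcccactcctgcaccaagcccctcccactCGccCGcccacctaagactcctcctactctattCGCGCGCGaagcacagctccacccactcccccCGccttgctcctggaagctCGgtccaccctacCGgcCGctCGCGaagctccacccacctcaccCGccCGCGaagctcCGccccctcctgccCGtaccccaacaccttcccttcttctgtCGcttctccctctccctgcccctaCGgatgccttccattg
Actl6b: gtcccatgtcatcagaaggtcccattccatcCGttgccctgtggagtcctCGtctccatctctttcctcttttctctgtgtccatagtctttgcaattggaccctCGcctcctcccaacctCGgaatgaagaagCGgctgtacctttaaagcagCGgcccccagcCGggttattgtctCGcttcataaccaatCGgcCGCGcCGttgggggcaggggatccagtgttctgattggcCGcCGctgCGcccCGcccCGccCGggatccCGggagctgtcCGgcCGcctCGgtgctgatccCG
Actl6a held 21 CG and Actl6b 23, counts that 24.8% and 21.5% of 32851 promoter windows of this length equalled or passed, whose median was 7. The motif searched was CG, which reads the same on both strands. Both windows thus had like CG counts. The 36 windows found for 33 members had a median of 31.5.

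Of the PBAF subunits, Pbrm1, the polybromo protein with its row of bromodomains, was the highest SWI/SNF member per merged exon length, at 50.7 and 52.3 CPM per kb in wildtype and 52.6 and 49.4 in the libraries labelled mutant. With the longest transcript as length Smarce1 lay above Pbrm1, at 62.8 against 57.3 on average, so this rank depends on the length used. In CPM Pbrm1 measured 448, 463, 465 and 437, and the groups overlapped. Arid2 had 192 and 189 CPM in wildtype, against 218 and 196 CPM in the libraries labelled mutant, a log2 fold change of 0.12 ± 0.12. Phf10 was lower in both libraries labelled mutant, 60.8 CPM each against 67.7 CPM in each wildtype library, but its log2 fold change of -0.16 ± 0.13 did not pass (edgeR adjusted p = 0.967). Brd7 ran from 116 to 130 CPM. Brd9, the bromodomain subunit of non-canonical BAF, measured 81.7 and 83.1 CPM in wildtype, against 71.8 and 76.1 CPM in the libraries labelled mutant, with a log2 fold change of -0.16 ± 0.13. Per length Brd9 stood at 0.493 of Brd7 in wildtype and 0.465 in the libraries labelled mutant.

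Among the accessory subunits Ss18, known from the gene fusion of synovial sarcoma, was the highest per length, at 13.6 to 15.3 CPM per kb. It measured 144 and 128 CPM in wildtype, against 138 and 133 CPM in the libraries labelled mutant. Its paralogue Ss18l1, a neuronal subunit, measured 16.6, 14.3, 13.6 and 12.6 CPM. Ss18l1 stood at 0.246 of Ss18 per merged exon length in wildtype and 0.210 in the libraries labelled mutant; with the longest transcript the wildtype ratio was 0.108. Bcl7b (chromosome 5, 135168283 to 135181855) was lower in both libraries labelled mutant, 12.1 and 12.8 CPM against 15.4 and 14.5 CPM, with a log2 fold change of -0.27 ± 0.17 (edgeR adjusted p = 0.954). Bcl7a and Bcl7c showed overlapping groups.

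Bcl11a and Bcl11b, zinc finger transcription factors of blood and nerve cells that also bind BAF, had opposite orders in the libraries labelled mutant. Bcl11a measured 39.2 and 40.6 CPM in wildtype, 48.4 CPM in labelled mutant 1 and 28.7 CPM in labelled mutant 2, the highest and the lowest of the 4. Bcl11b measured 14.0 and 11.9 CPM in wildtype, 11.4 CPM in labelled mutant 1 and 15.0 CPM in labelled mutant 2. The group means were close, with log2 fold changes of -0.05 ± 0.23 and 0.02 ± 0.20. For Bcl11a the gap between the library labelled mutant 2 and the next was 0.45 on the log2 scale, which 1.87% of tested genes equalled or passed in that library.

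**Figure D2:**
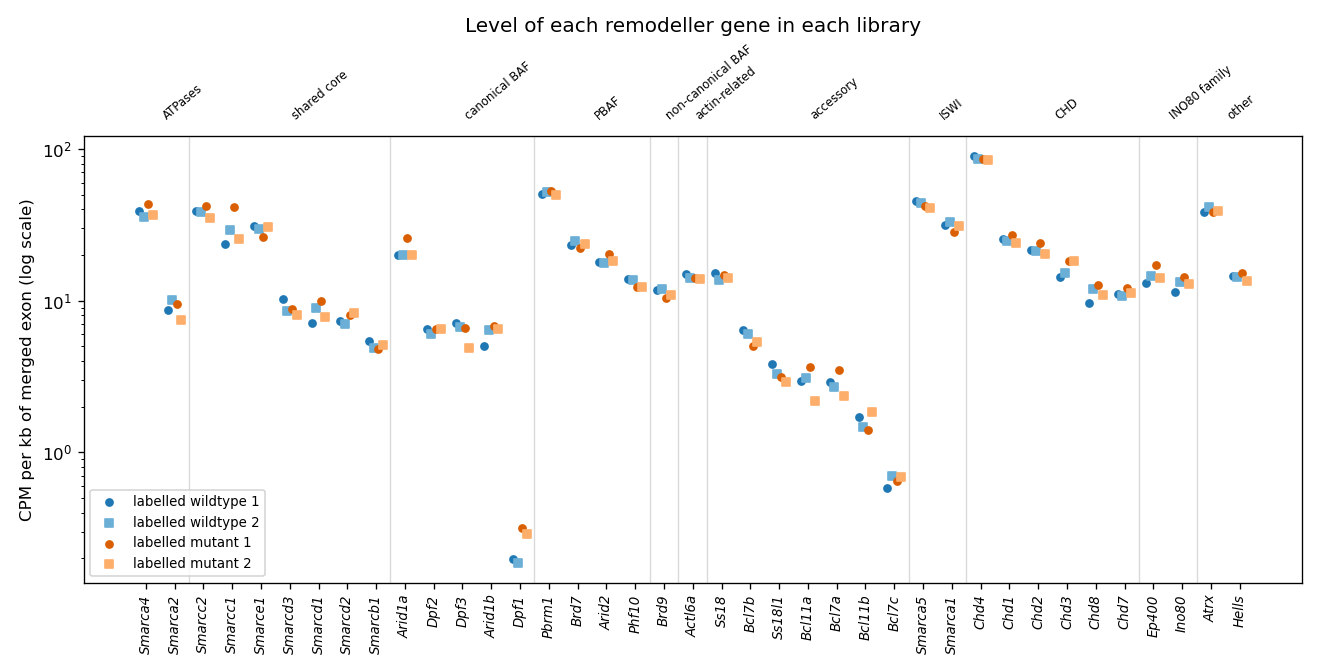
Level of 39 members in each library as CPM per kb of merged exon (y axis, log scale), by family and in falling order of level within it (x axis); each point is 1 library, and Actl6b, at 0, is left out. Chd4 lies highest and Dpf1 lowest, and most genes keep their 4 libraries close together.

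Both ISWI ATPases, which space nucleosomes evenly, were well expressed. Smarca5, the more widely expressed, had 45.7 and 44.2 CPM per kb in wildtype and 41.9 and 41.0 in the libraries labelled mutant, and Smarca1 had 31.7, 32.8, 28.3 and 30.9. Both genes were lower in both libraries labelled mutant, by log2 fold changes of -0.12 ± 0.12 each, and neither passed (edgeR adjusted p = 0.979 for both). With the GC trend removed the log2 fold changes were -0.03 for Smarca1 and -0.03 for Smarca5. Smarca1 lies on the X chromosome (47809368 to 47892974); without the library labelled mutant 2, which differed in sex, its log2 fold change was -0.18. The ratio of Smarca1 to Smarca5 was 0.718 in wildtype and 0.715 in the libraries labelled mutant.

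Chd4, the ATPase of the NuRD complex, which joins remodelling to histone deacetylation, was the highest of all members per length. It had 89.7 and 85.4 CPM per kb in wildtype and 86.3 and 84.3 in the libraries labelled mutant. Per merged exon, every one of these values lay above every value of Pbrm1, the next gene. With the longest transcript as length, Chd4 averaged 103 CPM per kb and Atrx came next, at 83.2. Chd4 had a log2 fold change of -0.04 ± 0.13.

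Chd3 (chromosome 11, 69343273 to 69369406), the alternative ATPase of NuRD, was the member with the lowest p. It measured 122 and 129 CPM in wildtype (mean 125 ± 5.06, SD, n = 2), against 154 and 155 CPM in the libraries labelled mutant (mean 154 ± 0.495, SD, n = 2). Both libraries labelled mutant lay above both wildtype ones. Chd3 had a log2 fold change of 0.30 ± 0.12, an interval from 1.02-fold to 1.49-fold, and an unadjusted edgeR p of 0.0336, which became 0.787 after adjustment over all genes. With the replicate block its unadjusted edgeR p was 0.0764. The log2 fold change was 0.30 without either of the libraries labelled mutant. It was 0.24 with a trend over GC content removed, a setting in which 0 members had an unadjusted p under 0.05, against 5.71% of all genes. The ratio of Chd3 to Chd4 per length was 0.160 and 0.178 in wildtype and 0.211 and 0.217 in the libraries labelled mutant, a difference of 0.34 in log2 ratio (exact permutation p = 0.333).

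The remaining CHD genes had overlapping groups except Chd7, the gene mutated in CHARGE syndrome, which includes heart defects. Chd7 measured 154 and 149 CPM in wildtype, against 166 and 154 CPM in the libraries labelled mutant, a log2 fold change of 0.08 ± 0.12. Chd8, a paralogue known for its link to autism, measured 160 and 197 CPM, and 211 and 179 CPM. Chd1 and Chd2, which act at transcribed genes, had log2 fold changes of 0.02 ± 0.13 and 0.05 ± 0.13. In Chd2, 18.4% of exon bases are shared with other genes on the same strand.

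In the INO80 family, Ino80 and Ep400 were highest in the library labelled mutant 1. Ep400, the ATPase of the TIP60 acetyltransferase complex, measured 182 and 203 CPM in wildtype, against 239 and 196 CPM in those labelled mutant 1 and 2. Ino80 measured 77.9 and 90.9 CPM, and 97.9 and 88.1 CPM. The groups overlapped for both, with log2 fold changes of 0.18 ± 0.14 and 0.14 ± 0.14.

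Hells, which aids DNA methylation and is a gene of dividing cells, measured 105 and 103 CPM in wildtype, against 110 and 96.9 CPM in the libraries labelled mutant. Proliferation markers, as a list of 8, had 0 members called and a median log2 fold change of 0.03. Atrx, an X-linked remodeller of heterochromatin, measured 838, 898, 835 and 850 CPM, with a log2 fold change of -0.04 ± 0.13, and -0.05 without the library labelled mutant 2.

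By level, SWI/SNF members had a median of 8.67 CPM per kb over 28 genes and the other remodellers 19.1 over 12, beside 5.10 over the 14115 tested genes with a known length. The other remodellers here are the ATPases of their complexes, while most SWI/SNF members are smaller subunits. The 2 SWI/SNF ATPase genes alone had a median of 23.8, with Smarca2 at 8.93 and Smarca4 at 38.8. The part of the kind of subunit in these levels was not tested. The SWI/SNF range ran from 0 for Actl6b to 51.2 for Pbrm1. Of 38 neighbouring genes in the order of levels, 10 had all 4 libraries above all 4 of the next. The values of the others overlapped by this rule, which does not use the order within each library. Smarca5, for one, lay above Atrx in each library per merged exon but was not among the 10. With the longest transcript as length Atrx averaged 83.2 CPM per kb and Smarca5 55.0, so their order depends on the length used.

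Over 16 paralogue ratios, 6 had groups that did not overlap, or 37.5%, near the 33.2% of all tested genes. The exact permutation test cannot go below 0.333 with 2 libraries against 2, and the lowest adjusted p was 0.889, so it cannot call any of these ratios. The order of the paralogues was the same in all 4 libraries for 12 of them. The largest difference in log2 ratio was 0.60, for Dpf1 over Dpf2, which rests on the few reads of Dpf1. With the longest transcript as length, the mean log2 ratio over the 4 libraries changed sign for 2 pairs, Chd2 over Chd1 and Chd7 over Chd8. Dpf3 over Dpf2, above 1 in 3 libraries per merged exon, was then below 1 in all 4.

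**Figure D3:**
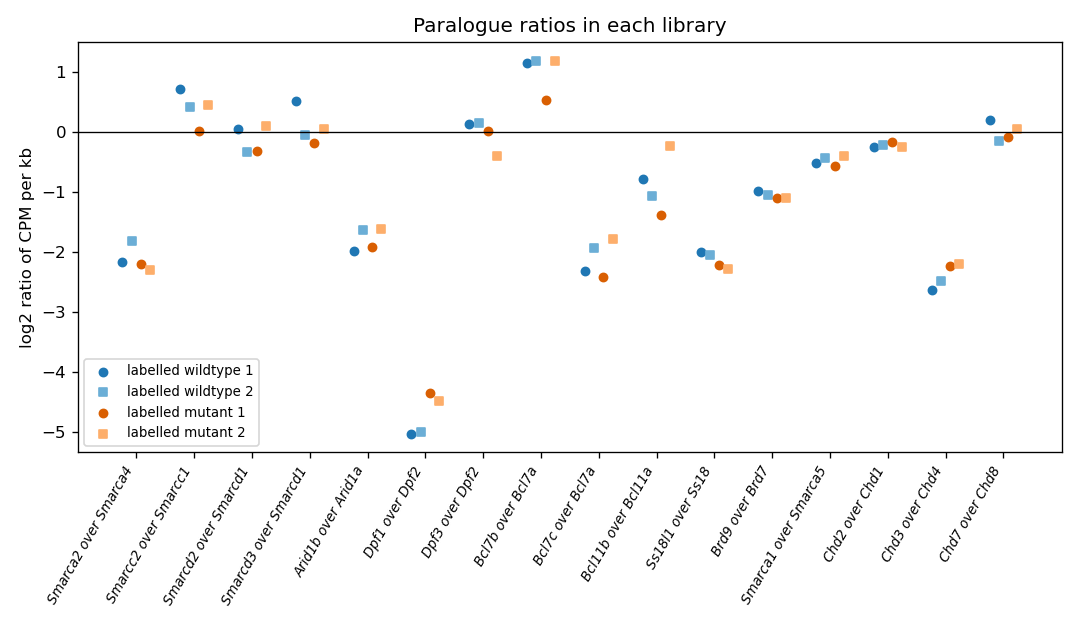
Log2 ratio of CPM per kb for 16 paralogue pairs (x axis) in each of the 4 libraries (points); 0 marks equal levels. Smarca2 lies about 2 below Smarca4 in every library, Dpf1 more than 4 below Dpf2, and the Smarcd ratios cross 0.

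Differences within the 2 replicate numbers did not repeat each other. Number 1 gave 23 of 39 members a higher value in the library labelled mutant, with a median difference of 0.08 in log2 CPM. Number 2 gave 13, with a median of -0.06. Over all 14316 tested genes these counts were 7118 and 7224, with medians of -0.0021 and 0.0029. By their sex-linked transcripts the libraries of number 2 differed in sex, and those of number 1 did not. For 21 of 39 members, or 53.8%, the sign was the same in both numbers, against 48.3% of all tested genes. The library labelled mutant 1 was the highest of the 4 for 19 members, or 48.7%, against 29.6% of all tested genes. The library labelled mutant 2 was the lowest for 15, or 38.5%, against 22.5%, and the highest for 3, or 7.69%, against 22.3%. Members are long genes, with a median merged exon length of 7777 bases against 4482 for all tested genes. Their median GC content was 49.395%, against 49.447%. Across the 14115 genes with a known length the difference in number 1 rose with length (Spearman rho 0.187) and with GC content (0.251). In number 2 rho was -0.131 with length and 0.0060 with GC content. Over the 39 tested members rho was 0.403 with length and 0.311 with GC content in number 1, and 0.102 and 0.136 in number 2. The part of length and GC content in the counts above was not tested. Genes are not independent replicates, and both measures share the same libraries. With the length trend removed the members' median log2 fold change was -0.018, and with the GC trend removed 0.039.

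**Figure D4:**
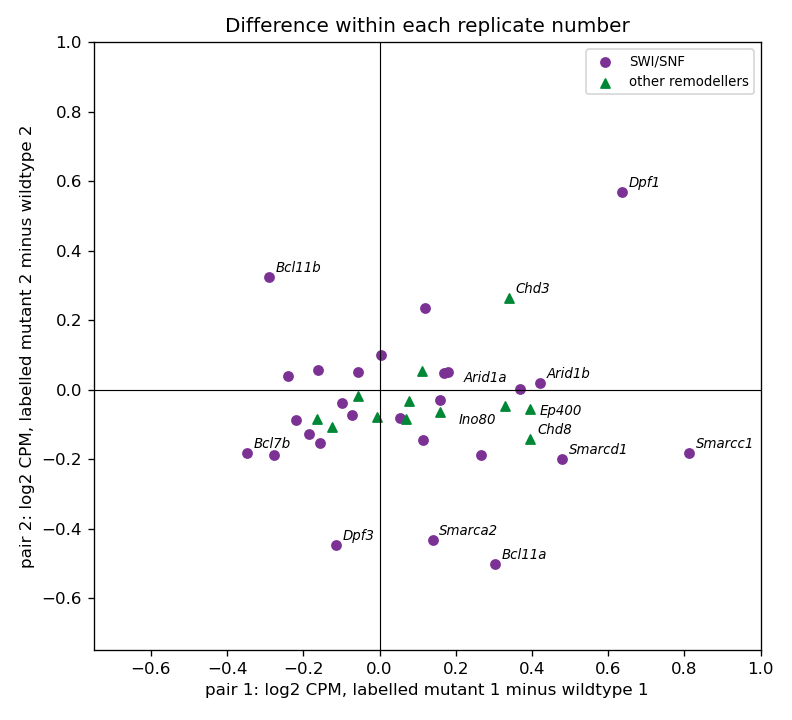
Log2 CPM of the library labelled mutant minus the wildtype library of the same number, for number 1 (x axis) and number 2 (y axis); each point is 1 of 39 tested members, circles SWI/SNF and triangles other remodellers. Smarcc1 lies at 0.81 and -0.18, Bcl11a at 0.30 and -0.50, and Dpf1 and Chd3 are above 0 in both.

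Partner genes of the same complexes, a list of 60 of which 59 were tested, gave 0 calls. By edgeR 0 passed, also with the replicate block or by DESeq2, and 2 had an unadjusted p under 0.05, or 3.39%, against 5.78% of all genes. Their median log2 fold change was -0.0022. Those 2, named after their values were seen, were Mbd3, a NuRD subunit, at 0.55 ± 0.20 (edgeR adjusted p = 0.741), and Chd5, a neuronal NuRD ATPase, at 1.40 ± 0.52 (0.747). Mbd3 measured 25.6 and 30.1 CPM in wildtype, against 48.0 and 33.1 CPM in the libraries labelled mutant. Chd5 had 8 and 6 reads in wildtype and 30 and 11 in the libraries labelled mutant 1 and 2. The partners of highest level had small differences, among them Baz1b of ISWI at 0.08, Morf4l1 of TIP60 at 0.12, Rbbp7 of NuRD at -0.10 and Actb, the actin of SWI/SNF, at 0.16.

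The authors' deposited table held 38 of the members, without Dpf1. Of its 11507 rows, 43 were past an adjusted p of 0.05 by the authors' edgeR, and 0 of the 38 members were. The lowest unadjusted p of a member there was 0.0703, for Chd3. The members' log2 fold changes differed by at most 0.0043 from those with the replicate block here.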

How the data were processed

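For the 4 libraries the authors deposited whole-number counts by gene symbol. Their deposited edgeR comparison gives log2 fold changes (wildtype over mutant, turned round here), log2 CPM, likelihood ratio scores, p-values and, for called rows only, a linear fold change. The tools named per the submitters' processing notes are TopHat2, Bowtie2, SAMtools, HTSeq and edgeR, on mm10. Their versions, the annotation and whether strand was used were not given in the sources here. Per the labels, ScriptSeq libraries were made after Ribo-Zero depletion. Rows that name no gene stayed out: reads outside features were 51.8% to 54.4% of tallied reads, those not unique 16.1% to 17.0%, ambiguous ones 0.187% to 0.210%.

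Genotype was tested on these counts by edgeR 4.0.16 under R 4.3.3 (TMM scaling, filterByExpr, quasi-likelihood F test of genotype, Benjamini-Hochberg over 14316 genes, threshold 0.05), after tests on simulated data. Standard errors derive from each fold change with its F value. Log2 CPM used a prior count of 2. Lengths, GC and positions are from GENCODE M21 (mm10) for 22819 of 23337 rows; 6 of 40 members share over 5% of exon bases with another gene. The limit of 3 reads covers counting error only.

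The series describes 2 pairs of mutants and littermates, and the numbers were read as pairs on that ground. Deviations of same-numbered libraries correlated at 0.144. With 2 libraries a group the crossed pairing gives the same value with its sign reversed, so this weak correlation cannot decide the pairing. Values given are without the block unless stated. Alternatives were the replicate block, scaling by RLE or upper quartile, no filter, CPM of at least 5 in 2 libraries, DESeq2 1.42.0, limma-voom (limma 3.58.1), each library left out and, chosen after seeing the data, length and GC trends removed. Named genes were Smarca4, Smarca2, the 5 of lowest p in SWI/SNF and the 5 outside it, the highest of each family, and paralogues for their levels. Other members named with values, among them Bcl11a, were added after their values were seen. Members and lists were chosen with earlier results of these data known.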

Additional observations from a re-analysis of the deposited data

How the results depend on the processing

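The count of members past the threshold stayed at 0 with the replicate block, both other scalings, both other filters, DESeq2, limma-voom and the length and GC trends removed, and ranged from 0 to 1 with a library left out, the 1 being Smarcc1 without the library labelled mutant 2. The replicate block changed no call of a member. Over all genes the count of 9 became 127 with the block, 236 without a filter, 62 with DESeq2, 16 and 14 with the length and GC trends removed, and 76 and 48 with these and the block, and ranged from 3 to 443 with a library left out. The members at an unadjusted p under 0.05, 1 in the main setting, were 0 with the block, with the GC trend removed, and with either trend removed beside the block, 2 without a filter, and 0 to 2 with a library left out. The cause was not tested. With upper-quartile scaling Smarcc2 turned to 0.0098, Pbrm1 to 0.0043 and Ss18 to 0.013. With the GC trend removed Pbrm1 turned to 0.057, Ss18 to 0.039 and Atrx to 0.052, and with the block beside it they were at 0.055, 0.039 and 0.053. With the stricter filter Ss18 was at 0.0021. With a library left out, log2 fold changes ran from -0.015 to 0.23 for Smarca4, -0.33 to 0.027 for Smarca2, -0.044 to 0.66 for Smarcc1, -0.15 to 0.12 for Smarcc2, -0.062 to 0.036 for Pbrm1, -0.086 to 0.082 for Ss18, -0.075 to 0.0015 for Chd4 and -0.089 to 0.0049 for Atrx. Differences in log2 ratio, labelled mutant minus wildtype, ran from -0.43 to -0.082 for Smarca2 over Smarca4, -0.17 to 0.25 for Smarcd2 over Smarcd1, -0.14 to 0.21 for Arid1b over Arid1a, -0.64 to 0.022 for Bcl7b over Bcl7a, -0.30 to 0.35 for Bcl7c over Bcl7a, -0.46 to 0.69 for Bcl11b over Bcl11a, -0.089 to 0.071 for Smarca1 over Smarca5, -0.019 to 0.069 for Chd2 over Chd1 and -0.22 to 0.13 for Chd7 over Chd8. With the longest transcript as length the mean log2 ratio was -0.88 for Smarca2 over Smarca4, 0.29 for Chd2 over Chd1, -0.52 for Chd7 over Chd8, -0.57 for Dpf3 over Dpf2, -3.32 for Ss18l1 over Ss18, -2.01 for Bcl11b over Bcl11a, -2.91 for Bcl7c over Bcl7a, 0.45 for Bcl7b over Bcl7a, -2.12 for Arid1b over Arid1a and -0.99 for Brd9 over Brd7. A lone library in a group is assumed to vary like the other group. Depth limits Dpf1 and Actl6b most among the members.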
